A study of Homo sapiens with 4 samples.

Results

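The 9 genes described here encode parts of the B cell antigen receptor, its coreceptors and other proteins of the B cell lineage: CD79A, CD79B, CD22, CR2, BLK, MS4A1, FCER2, FCRLA and TCL1A. They were chosen by symbol, each symbol matched 1 row of the count table, and they make up 9 of its 78932 Ensembl genes. The cells were a multiple myeloma line labelled RPMI82266, and their RNA was sequenced 72 hours after transfection of an LNA ASO, a short antisense strand with locked sugars that binds a matching RNA. The CELF2 LNA ASO group (2 libraries) received 5 nM of an ASO against CELF2, an RNA-binding protein of splicing and mRNA stability. The control LNA ASO group (2 libraries) received a control ASO, for which the labels give no dose. All 4 libraries come from this 1 cell line. Whether the numbers 1 and 2 in the titles stand for replicates or for different ASOs is not stated, and no label says that the libraries are separate cultures, so the p-values reflect the spread among these libraries alone, which may be technical.

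In B cells, surface immunoglobulin has almost no cytoplasmic tail and signals through a pair of partner chains, Igα (CD79A) and Igβ (CD79B), whose tyrosine motifs are phosphorylated by Src-family kinases such as BLK. Complement receptor 2 (CR2, CD21) and CD81 belong to a coreceptor complex that lowers the threshold for signalling, while CD22 binds sialic acid and recruits the phosphatase SHP-1 to dampen it. Mature B cells also carry CD20 (MS4A1) and the low-affinity IgE receptor CD23 (FCER2). Most of this programme is shut off when B cells become plasma cells, the cells from which myeloma arises.

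The libraries held 26061900 and 23599190 counts with the CELF2 ASO and 29161298 and 24493148 with the control ASO. Levels are given as CPM, a gene's share of the TMM-scaled library as edgeR computes it, or as raw counts where these are low. CELF2 itself, the target, was at 52.7 ± 5.53 CPM with the CELF2 ASO and 128 ± 0.0805 CPM with the control ASO (SD, n = 2 each), 2.43-fold lower (edgeR adjusted p = 2.88e-05). The biological coefficient of variation was 13.7% within the CELF2 ASO pair and 3.58% within the control pair. Some plasma cell genes were abundant, while CD27 had 2 and 1 counts with the CELF2 ASO against 1 and 4 with the control ASO. IRF4, a transcription factor of plasma cells, was at 1386 ± 63.6 CPM with the CELF2 ASO and 813 ± 2.21 CPM with the control ASO, and SDC1, the surface proteoglycan CD138, at 201 ± 66.5 CPM with the CELF2 ASO and 470 ± 27.8 CPM with the control ASO (SD, n = 2 each). PTPRC, the leukocyte phosphatase CD45, had 8 and 6 counts with the CELF2 ASO against 3 and 1 with the control ASO.

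Promoter windows were taken from RefSeq on GRCh38.p14, 250 bases before to 50 after the RefSeq start of a gene, and 6 of the 9 members matched an entry. The 3 windows printed here belong to FCRLA, the tested member with most reads among those that rose, CD79A, a chain of the receptor itself, and CR2, a coreceptor gene that fell. Positions count from that start, which differs from the GENCODE gene starts given with the members. Capitals mark matches to the letters searched on both strands.

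FCRLA, chr1:161706979-161707278, plus strand: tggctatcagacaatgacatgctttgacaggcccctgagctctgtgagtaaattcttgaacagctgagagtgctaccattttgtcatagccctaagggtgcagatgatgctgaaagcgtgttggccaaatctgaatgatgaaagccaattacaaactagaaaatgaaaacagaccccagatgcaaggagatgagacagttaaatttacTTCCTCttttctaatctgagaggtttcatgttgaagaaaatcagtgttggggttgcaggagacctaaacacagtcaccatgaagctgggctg

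CD79A, chr19:41877029-41877328, plus strand: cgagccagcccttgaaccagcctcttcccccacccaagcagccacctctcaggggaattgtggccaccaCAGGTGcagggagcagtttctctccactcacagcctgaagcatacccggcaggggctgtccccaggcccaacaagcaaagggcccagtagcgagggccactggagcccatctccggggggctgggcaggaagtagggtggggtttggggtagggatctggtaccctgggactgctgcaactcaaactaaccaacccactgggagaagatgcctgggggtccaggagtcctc

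CR2, chr1:207454078-207454377, plus strand: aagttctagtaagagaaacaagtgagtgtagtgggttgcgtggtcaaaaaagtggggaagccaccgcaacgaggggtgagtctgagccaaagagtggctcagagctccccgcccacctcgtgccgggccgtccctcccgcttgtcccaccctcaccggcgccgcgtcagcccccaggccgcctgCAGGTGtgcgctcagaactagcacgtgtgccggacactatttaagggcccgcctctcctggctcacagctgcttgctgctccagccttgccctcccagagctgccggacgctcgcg

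The FCRLA window held the PU.1 core GAGGAA on the opposite strand, with its first printed base at position -42 from the RefSeq start. The CD79A and CR2 windows each held the E2A box CAGGTG on the gene's strand, at -181 and -66. In all 35116 promoter windows of the table, GAGGAA or its complement was found in 27.9% and the E2A box in 20.6%. The TCL1A window held TATAAA at -27, letters found in 11.5% of windows. Neither the octamer ATTTGCAT, found in 1.77% of all windows, nor the EBF core CCCNNGGG, which reads the same on both strands and was found in 19.1%, occurred in the 7 windows of these 6 members (FCER2 has 2). No window held more than 1 match. CD79A, with more reads with the CELF2 ASO, and CR2, with fewer, both held the E2A letters, and a match is only a description of the sequence.

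Of the 9 members, 7 passed the filter on low counts and were tested. CD22, CD79B, FCRLA, FCER2 and MS4A1 were higher with the CELF2 ASO, and CR2 and BLK were lower. Among all 19511 tested genes, 55.5% were called, 27.5% higher and 27.9% lower, so a call by itself sets a gene little apart in these libraries. CD22 and CD79B passed the filter only through the CELF2 ASO libraries, so they had to differ to be tested at all, and the count of calls is a description. CD79A and TCL1A were not tested. RNA came from whole cultures, so a change in the share of cells that express a gene and a change in RNA per cell cannot be told apart.

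**Figure D1:**
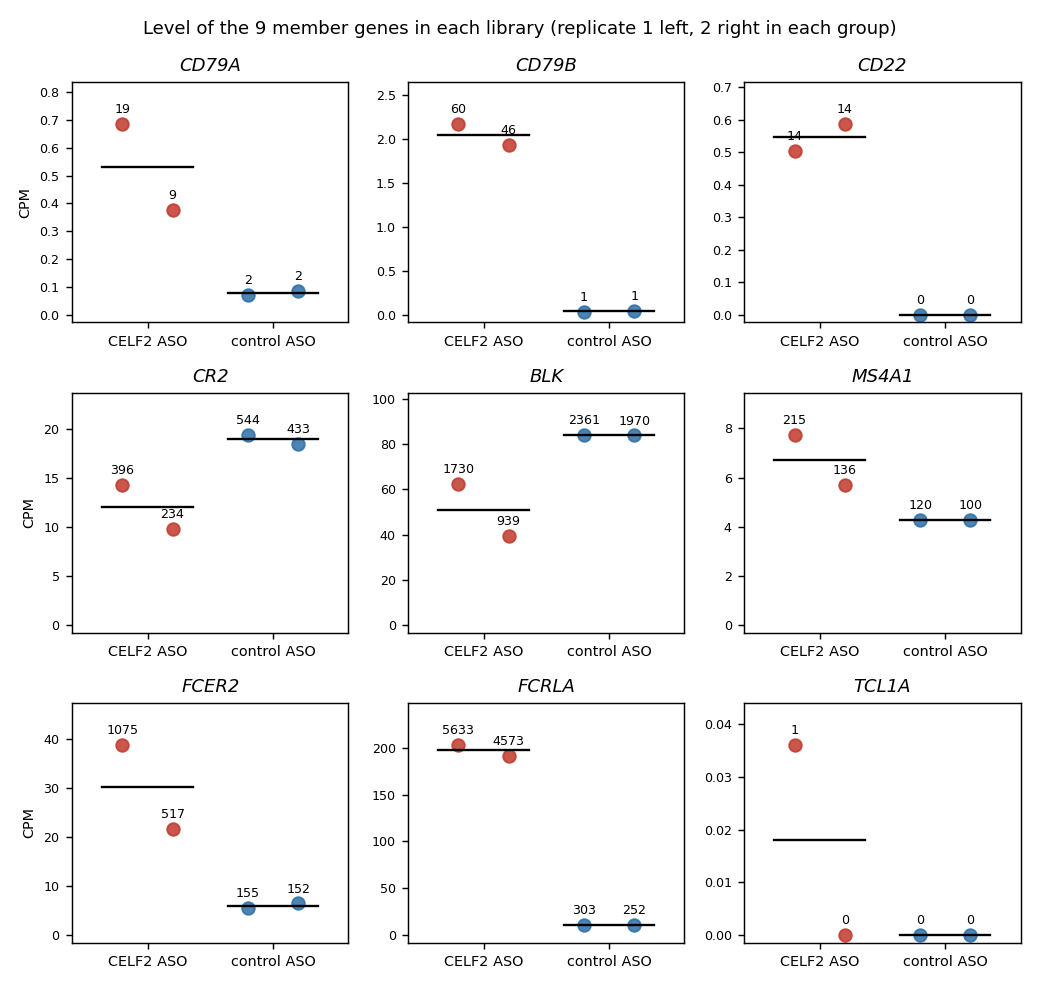
Level of each member in CPM (vertical axis, linear from 0) in the 2 CELF2 ASO libraries (red, left) and the 2 control ASO libraries (blue, right). Points are libraries with their raw counts printed above, and black lines are group means. The FCRLA points lie at 203 and 191 CPM with the CELF2 ASO against 10.8 and 10.7 CPM in the control, while CR2 and BLK are lower in both CELF2 ASO libraries than in either control library.

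The signalling chains of the receptor were close to silent in control cells. CD79B (ENSG00000007312, GRCh38 chromosome 17, 63928740 to 63932354, minus strand) had 60 and 46 counts in the CELF2 ASO libraries against 1 count in each control library. Both CELF2 ASO libraries were far above both control libraries. The ratio of summed counts per library size was 52.8, with a 95% exact counting interval of 14.3 to 442 that covers counting error only (edgeR adjusted p = 5.4e-05). Even so, its level with the CELF2 ASO was only 2.04 ± 0.168 CPM (SD, n = 2).

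The gene next to CD79B changed with it. SCN4A, which encodes the voltage-gated sodium channel of skeletal muscle, starts and ends upstream of CD79B on the same strand, 6200 bases away (63938554 to 63972918). It had 615 and 578 counts with the CELF2 ASO against 9 and 11 with the control ASO, 5.88 on the log2 scale (SE 0.20, edgeR adjusted p = 3.68e-06). Like CD79B, it passed the filter only through the CELF2 ASO libraries. For every 100 counts of SCN4A there were 9.76 and 7.96 counts of CD79B in the CELF2 ASO libraries, and 11.1 and 9.09 in the control libraries, the last 2 resting on 1 CD79B count each. Whether reads from SCN4A transcripts that run on into CD79B contribute to its counts was not tested, since the table gives whole genes and no positions. A second gene on the same strand, AC127029.3, shares 288 exon bases with CD79B and was listed at 0 in all 4 libraries. The next tested gene on the other side, SMARCD2, a chromatin remodelling subunit 85.7 kb away, fell by 0.61 on the log2 scale (edgeR adjusted p = 0.00183).

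CD79A (ENSG00000105369, chromosome 19, 41877120 to 41881372, plus strand), whose promoter window is shown above, had 19 and 9 counts with the CELF2 ASO against 2 in each control library. The groups did not overlap. The ratio of summed counts per library size was 6.98, with a 95% exact counting interval of 2.44 to 27.4. It missed the filter because CELF2 ASO replicate 2 fell under the required level. With no filter it was called higher (edgeR adjusted p = 0.00129). Both flanking genes lie within 5 kb and did not rise. The ribosomal protein gene RPS19 changed by -0.16 on the log2 scale and was not called (edgeR adjusted p = 0.162). ARHGEF1 fell by 0.31 (edgeR adjusted p = 0.019). Of 6 tested genes within 100 kb of CD79A, 1 was called higher and 1 lower. The higher one was RABAC1, 0.89 on the log2 scale (edgeR adjusted p = 0.0234).

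Of 8 immunoglobulin constant region genes, 5 were tested, 2 higher (IGLC2 and IGLC3) and 2 lower (IGHG1 and IGHE). The share called was 80% against 55.5% of all tested genes. The heavy chain gene IGHM was listed at 0 in all 4 libraries. IGHG1 had 21 and 7 counts with the CELF2 ASO against 44 and 43 with the control ASO (edgeR adjusted p = 0.00927). IGHE had 9 and 4 counts against 21 and 22 (edgeR adjusted p = 0.0106), and both heavy chain genes passed the filter only through the control libraries. The lambda light chain constant gene IGLC2 was at 8603 ± 138 CPM with the CELF2 ASO and 1486 ± 238 CPM with the control ASO (SD, n = 2 each), a 5.79-fold rise (edgeR adjusted p = 7.28e-06) that lost its call without CELF2 ASO replicate 2 (adjusted p = 0.0701). Constant region genes such as IGLC2 and IGLC3 are near-identical copies, so the reads of a single one are uncertain.

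The inhibitory coreceptor CD22 (ENSG00000012124, chromosome 19, 35319261 to 35347355, plus strand) had 14 counts in each CELF2 ASO library and 0 in each control library. With the control group set to a floor of 3 counts, the ratio of summed counts per library size was 9.3, which leaves out counting error. With the 0 control counts as they are, the exact counting interval of the ratio started at 7.08 and had no upper end. CD22 was called higher (edgeR adjusted p = 0.0014). Its level with the CELF2 ASO was 0.505 and 0.586 CPM, under 1 CPM in each library, and it missed the filter when either of these libraries was left out. MAG, the nearest gene with at least 10 counts and a relative of CD22 in myelin, went untested with 2 and 4 counts against 9 and 6. Of 5 tested genes within 100 kb, 1 was called higher and 3 lower. The higher one was the pseudogene EEF1A1P7, 0.98 on the log2 scale (edgeR adjusted p = 0.000302).

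Of the activating coreceptor complex, CR2 and CD81 were lower. CR2 (ENSG00000117322, chromosome 1, 207454230 to 207489895, plus strand) had 396 and 234 counts with the CELF2 ASO and 544 and 433 with the control ASO, or 14.3 and 9.79 CPM against 19.4 and 18.5 CPM. The CELF2 ASO libraries were apart from each other but both under the control pair. CR2 fell 1.57-fold, -0.65 on the log2 scale (SE 0.17, edgeR adjusted p = 0.0149), a call that was lost with libraries scaled by totals alone (adjusted p = 0.0534). CD81, a tetraspanin, fell 2.62-fold to 60.4 ± 3.56 CPM with the CELF2 ASO, against 158 ± 2.1 CPM with the control ASO (SD, n = 2 each, edgeR adjusted p = 1.21e-05). The neighbouring complement regulator CD55, 67.4 kb from CR2, went the other way and rose 2.9-fold (edgeR adjusted p = 1.15e-05). CD46, the nearest tested gene on the other side at 262.2 kb, was called lower. Its log2 fold change was -0.27 (edgeR adjusted p = 0.0156).

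BLK, the Src-family kinase of B cells (ENSG00000136573, 11486894 to 11564604 on chromosome 8, plus strand), was the member with the highest level per length in control cells. It had 1730 and 939 counts with the CELF2 ASO and 2361 and 1970 with the control ASO, or 62.4 and 39.3 CPM against 84.3 and 84 CPM. The control libraries were nearly equal and both above the CELF2 ASO pair, which differed 1.59-fold within itself. BLK fell 1.65-fold, -0.72 on the log2 scale (SE 0.22, edgeR adjusted p = 0.0443). The call was lost with library totals alone (adjusted p = 0.0806) and sat at the threshold with a 1 CPM filter (adjusted p = 0.05). The antisense gene AC022239.1 shares 65 exon bases with BLK and had 72 and 32 counts against 66 and 50. No strand setting is given in the sources used here, so reads in the shared bases cannot be assigned to one strand.

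MS4A1, the gene of CD20 and target of rituximab (ENSG00000156738, chromosome 11, 60455752 to 60470760, plus strand), was expressed at a low level in both groups. It had 215 and 136 counts with the CELF2 ASO and 120 and 100 with the control ASO, or 7.75 and 5.69 CPM against 4.29 and 4.26 CPM. The groups did not overlap, although CELF2 ASO replicate 2 was the nearer to the control. MS4A1 was 1.58-fold higher, 0.66 on the log2 scale (SE 0.19, edgeR adjusted p = 0.0208). The call was lost when either control library was left out (adjusted p = 0.0631 without replicate 1 and 0.0625 without replicate 2), fits whose spread comes from the CELF2 ASO pair alone.

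FCER2, the IgE receptor CD23 (ENSG00000104921, chromosome 19, 7688758 to 7702146, minus strand), rose 5.05-fold. It had 1075 and 517 counts with the CELF2 ASO against 155 and 152 with the control ASO, or 38.8 and 21.6 CPM against 5.54 and 6.48 CPM. Every CELF2 ASO value was more than 3 times every control value, and the CELF2 ASO libraries differed 1.79-fold from each other. On the log2 scale this was 2.34 (SE 0.32, edgeR adjusted p = 0.00233), and the rise was 3.63-fold without CELF2 ASO replicate 1 and 6.4-fold without replicate 2. TRAPPC5, a vesicle tethering subunit that lies 1.1 kb away, had 24 and 11 counts against 10 and 16 (edgeR adjusted p = 0.494). The nearest tested gene on the other side, EVI5L, lies 128.1 kb away. EVI5L rose by 0.71 on the log2 scale (edgeR adjusted p = 0.000641).

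FCRLA, an Fc receptor-like protein kept inside B cells (ENSG00000132185, chromosome 1, 161706972 to 161714352, plus strand), had most reads of all members after CELF2 ASO treatment. Its counts were 5633 and 4573 with the CELF2 ASO and 303 and 252 with the control ASO. As levels these were 203 and 191 CPM against 10.8 and 10.7 CPM, with little spread inside either pair. FCRLA rose 18.3-fold, 4.19 on the log2 scale (SE 0.09, edgeR adjusted p = 1.36e-06). Under the alternatives tried its log2 fold change ran between 4.14 without a filter and 4.31 with library totals alone. No tested gene within 100 kb was called higher. FCRLB, a related gene 7.2 kb downstream, had 71 and 60 counts against 69 and 60 and was not called (edgeR adjusted p = 0.953). FCGR2B, an inhibitory Fc receptor gene on the other side, had 8 and 6 counts against 6 and 2 and was not tested. Further downstream, the stress sensor gene ATF6 fell by 0.38 on the log2 scale (edgeR adjusted p = 0.00303).

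TCL1A, a coactivator of AKT found in early B cells (ENSG00000100721, chromosome 14, 95709967 to 95714196, minus strand), had 1 and 0 counts with the CELF2 ASO and 0 in both control libraries. No fold is given, because both groups are under the floor of 3 counts. The nearby noncoding gene TCL6, 30.1 kb away, rose 1.82-fold (edgeR adjusted p = 0.000678).

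**Figure D2:**
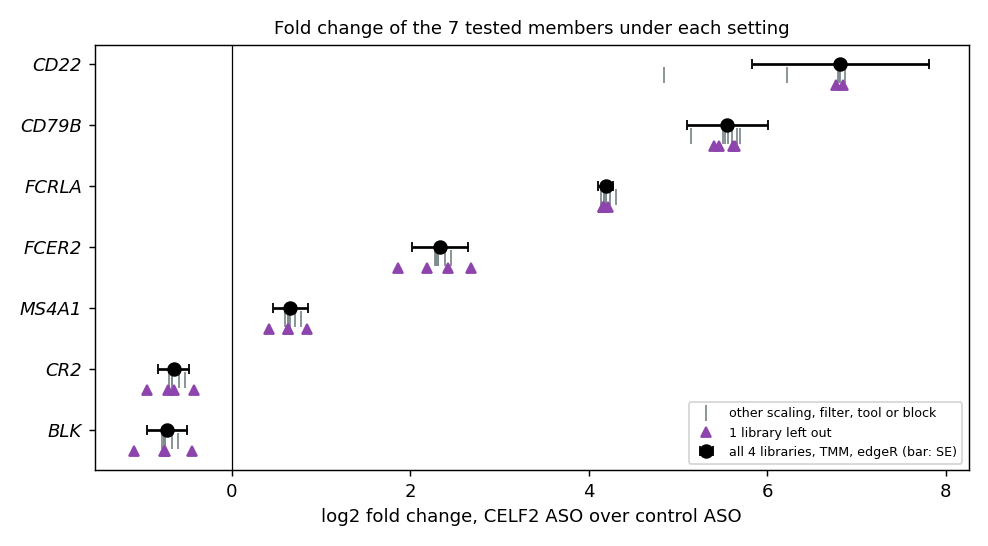
Log2 fold change of the 7 tested members, CELF2 ASO over control ASO (horizontal axis), with all 4 libraries (black, bar is the standard error), under other scalings, filters, tools or the block (grey ticks) and with 1 library left out (purple triangles). FCRLA stays near 4.19 throughout, while FCER2, CR2 and BLK move with the CELF2 ASO library left out. The fitted value of CD22, which has 0 control counts, depends on the tool and is no bound.

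Members differed in how far the CELF2 ASO libraries stood from each other. The CPM in replicate 1 over that in replicate 2 was 1.36 for MS4A1, 1.46 for CR2, 1.59 for BLK, 1.79 for FCER2 and 1.82 for CD79A. It was 1.06 for FCRLA, 1.12 for CD79B and 0.862 for CD22. Among the 11028 tested genes whose mean log2 CPM reached 2, this ratio had a median of 0.99 and lay between 0.748 at the 5th percentile and 1.37 at the 95th. CR2, BLK and FCER2 were thus outside that range, with replicate 1 the higher. In the control pair the members' ratios ran from 0.838 to 1.05. The 2 members that fell and FCER2, which rose, were all higher in CELF2 ASO replicate 1, so that replicate 1 showed the smaller fall of CR2 and BLK and the larger rise of FCER2. The fold fall of BLK was 2.13 without CELF2 ASO replicate 1 and 1.37 without replicate 2, and that of CR2 was 1.93 and 1.35.

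Divided by exon length, the order of the members changed between the groups. As CPM per kilobase of merged exons, FCRLA led with the CELF2 ASO at 60.2 ± 2.53, followed by FCER2 at 12.3 ± 4.94, BLK at 10 ± 3.22, CR2 at 2.46 ± 0.649 and MS4A1 at 1.38 ± 0.299 (SD, n = 2 each). FCER2 and BLK overlapped in their ranges. Within each CELF2 ASO library FCER2 was the higher, at 15.8 against 12.3 in replicate 1 and 8.83 against 7.74 in replicate 2. The difference was not tested. CD79B followed at 0.983 ± 0.0809 and CD79A at 0.353 ± 0.145, with CD22 at 0.0886 ± 0.00931. With the control ASO, BLK led at 16.6 ± 0.0495, ahead of CR2 at 3.88 ± 0.142, FCRLA at 3.29 ± 0.0184, FCER2 at 2.45 ± 0.272 and MS4A1 at 0.877 ± 0.00368 (SD, n = 2 each). CD79A was at 0.0521 ± 0.00648 and CD79B at 0.0188 ± 0.00234, on 4 and 2 counts in all, and CD22 and TCL1A were at 0. FCRLA therefore stood first with the CELF2 ASO and behind BLK and CR2 with the control ASO.

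The genes whose profile over the 4 libraries was nearest to a member were sought for FCRLA, CD79B and CD22, the members with the smallest adjusted p, by Euclidean distance of centred log2 CPM with a prior count of 2. Of the nearest genes to FCRLA, PLAC1, a gene best known from placenta, lay at a distance of 0.12. PLAC1 was at 28.8 ± 0.0399 CPM with the CELF2 ASO and 1.5 ± 0.104 CPM with the control ASO (SD, n = 2 each), 19.2-fold higher. CD79B lay closer to FCRLA, at 0.09, and the nearest genes to CD22 were TSC22D3, a glucocorticoid-induced regulator (8.73-fold higher), at 0.12 and SLC22A14, a solute carrier, at 0.13. With 0 or 1 control counts per library, the profiles of CD79B and CD22 are set largely by the prior count, so these distances show no shared profile.

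**Figure D3:**
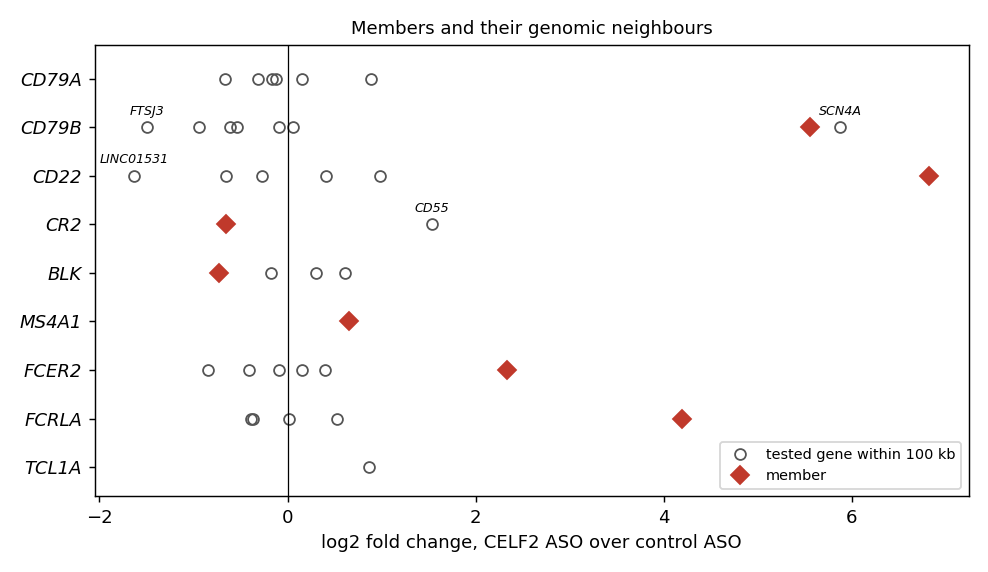
Log2 fold change, CELF2 ASO over control ASO (horizontal axis), of each tested member (red diamonds) and of the tested genes within 100 kb of each member (open circles). SCN4A lies at 5.88 beside CD79B and CD55 at 1.54 opposite to CR2. No tested gene within 100 kb of FCRLA or FCER2 was called higher. CD79A and TCL1A were not tested and have no diamond, and MS4A1 had no tested gene in its window.

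Genes that carry the signal away from the receptor changed in both directions. Of 37 genes in a receptor signalling list, 33 were tested: 11 rose, 15 fell and 7 were not called in CELF2 ASO libraries. The share called was 78.8% against 55.5% of all genes, and the median log2 fold change was -0.29 against 0.04. The tyrosine kinase SYK, which docks on the phosphorylated CD79 chains, fell 1.59-fold to 73.2 ± 1.07 CPM with the CELF2 ASO, against 117 ± 1.18 CPM with the control ASO (SD, n = 2 each, edgeR adjusted p = 0.000168). PLCG2, the phospholipase that makes the calcium-releasing messenger, fell 2.5-fold (edgeR adjusted p = 3.53e-05). PIK3AP1 (BCAP), the adaptor that brings PI3-kinase to the receptor, fell 2.92-fold (edgeR adjusted p = 9.02e-05). The Src-inhibiting kinase CSK also fell, 1.86-fold, to 313 ± 5.15 CPM with the CELF2 ASO, against 583 ± 8.35 CPM with the control ASO (SD, n = 2 each, edgeR adjusted p = 4.6e-05).

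The adaptor BLNK, which links SYK to PLCG2, was lower by 1.31 times (edgeR adjusted p = 0.0218). It missed the threshold when only totals set the scale (adjusted p = 0.124) and without control ASO replicate 1 (0.0682). BTK, the kinase targeted by ibrutinib, had 90 and 34 counts with the CELF2 ASO against 106 and 104 with the control ASO and was not called (edgeR adjusted p = 0.0835). It passed with no filter (adjusted p = 0.000907). BTK also passed without CELF2 ASO replicate 1, the nearer to the control, and without control ASO replicate 1. The spread in each of these fits comes from the other group's pair alone.

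On the other side, FYN, a Src-family kinase like BLK, rose 4.52-fold to 92.2 ± 0.815 CPM with the CELF2 ASO, against 20.4 ± 0.78 CPM with the control ASO (SD, n = 2 each, edgeR adjusted p = 3.96e-06). Its level per library was nearly the same within each pair, and above that of BLK with the CELF2 ASO on the CPM scale, which is not corrected for length. PAG1, the membrane adaptor that holds CSK, had 148 and 119 counts against 21 and 8 and rose 9.15-fold (edgeR adjusted p = 9.89e-05), or 3.19 on the log2 scale. That value was 3.87 without control ASO replicate 1 and 2.75 without control ASO replicate 2, and PAG1 passed the filter only through the CELF2 ASO libraries. The adaptor LAT2 (NTAL) rose 3.49-fold (edgeR adjusted p = 0.000417), the Ras exchange factor SOS1 1.51-fold (edgeR adjusted p = 0.00071) and the docking protein GAB1 1.46-fold (edgeR adjusted p = 0.00116). The list therefore held opposite changes among kinases of 1 family and among adaptors.

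**Figure D4:**
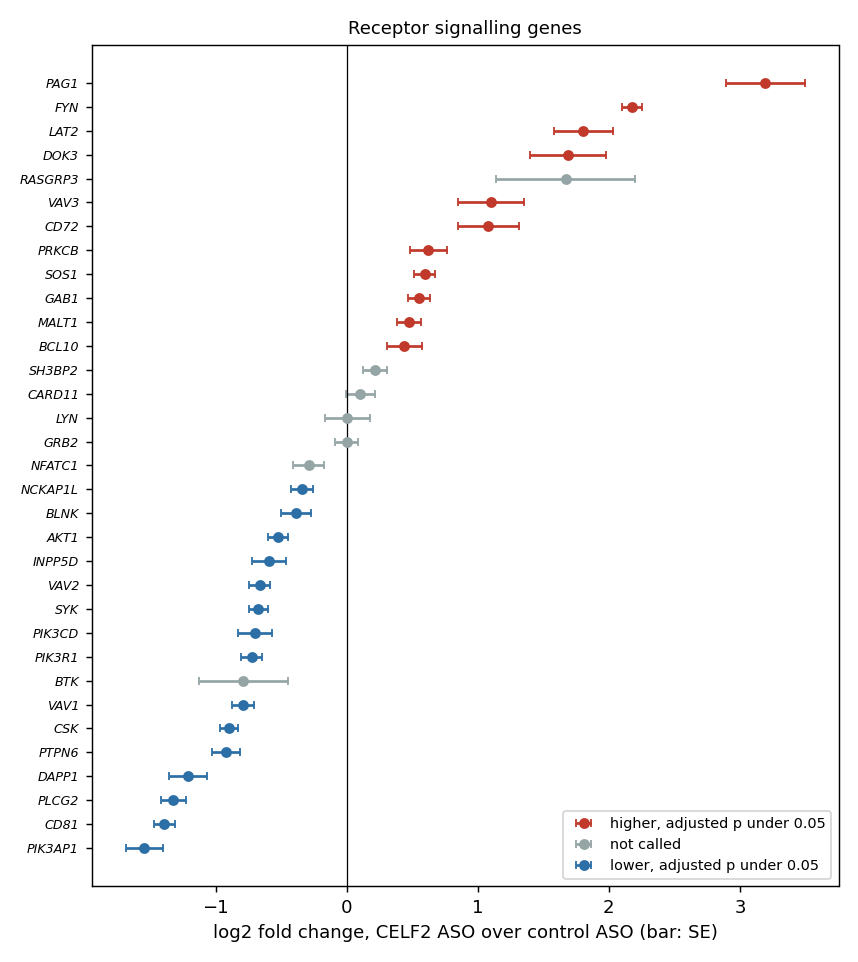
Log2 fold change, CELF2 ASO over control ASO (horizontal axis, bars are standard errors), of the 33 tested genes of the receptor signalling list. Red marks the 11 genes that were higher, blue the 15 that were lower and grey the 7 that were not called. PAG1 and FYN lie at the top and PIK3AP1 and CD81 at the bottom.

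Other surface genes of the B lineage were tested for 19 of 35, of which 9 were higher and 3 lower, a share called of 63.2% with a median log2 fold change of 0.40 against 0.04 for all genes. IL21R, the interleukin-21 receptor, rose 3.94-fold to 82.3 ± 14.4 CPM with the CELF2 ASO, against 20.9 ± 0.647 CPM with the control ASO (SD, n = 2 each, edgeR adjusted p = 1.92e-05). The activation marker CD83 rose 4.32-fold (edgeR adjusted p = 2.84e-05) and the inhibitory receptor LAIR1 2.28-fold (edgeR adjusted p = 1.85e-05). FCMR, the Fc receptor for IgM, fell 3.83-fold (edgeR adjusted p = 0.0177), a call lost with no filter (adjusted p = 0.178). The ATP-gated channel P2RX5 fell 2.72-fold (edgeR adjusted p = 0.00177) and the chemokine receptor CXCR4 1.6-fold (edgeR adjusted p = 0.000513). CXCR5, CCR6 and CD1C were at 0 in all 4 libraries.

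Transcription factors of the B lineage did not move one way. Of 21 listed, 19 were tested, 4 were higher and 7 lower. The share called was 57.9%, near the 55.5% of all tested genes, with a median of -0.13 against 0.04. EBF1, which activates CD79A and CD79B in B cell precursors, had 0 counts with the CELF2 ASO and 1 and 0 with the control ASO. PAX5, which activates CD79A, had 39 and 61 counts with the CELF2 ASO against 29 and 29 with the control ASO and was not called (edgeR adjusted p = 0.0823). It passed with the label's number as a replicate block (adjusted p = 0.0431). PAX5 also passed without CELF2 ASO replicate 1, the nearer to the control, a fit whose spread comes from the control pair alone. BACH2, which restrains plasma cell differentiation, rose 2.4-fold (edgeR adjusted p = 0.000305), POU2AF1, the OCT coactivator, 1.61-fold (0.000281) and TCF4, an E protein, 1.57-fold (0.000227). TCF3, which encodes E2A, fell 3.09-fold to 80.6 ± 20.9 CPM with the CELF2 ASO, against 250 ± 8.06 CPM with the control ASO (SD, n = 2 each, edgeR adjusted p = 0.000395). SPI1, which encodes PU.1, fell 2.39-fold (edgeR adjusted p = 9.8e-05) and IKZF1 1.96-fold (0.000138).

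Markers of plasma cells and of other cell types were read beside these genes. Their shares called stand beside 55.5% of all tested genes, whose median log2 fold change was 0.04. Of 14 plasma cell genes 13 were tested, 5 higher and 5 lower (76.9% called, median log2 fold change 0.02, or -0.0021 with RLE scaling), with DERL3, IRF4 and CD38 among the rises and GPRC5D, PRDM1 and SDC1 among the falls, the SDC1 call being lost with no filter (edgeR adjusted p = 0.18). PRDM1, which encodes BLIMP1, the repressor of B cell genes, fell 1.86-fold to 114 ± 12.4 CPM with the CELF2 ASO, against 211 ± 2.75 CPM with the control ASO (SD, n = 2 each, edgeR adjusted p = 0.000145). Of 16 T and NK cell markers 8 were tested, 1 higher (CD5) and 4 lower (62.5%, median -0.57), and their summed level was 98.1 and 63.2 CPM with the CELF2 ASO against 304 and 300 CPM with the control ASO. Most of that sum was CD8B, which fell 5.18-fold (edgeR adjusted p = 0.00274), a call lost with no filter (adjusted p = 0.0617). CD3D, CD3G and TRAC had 0 to 2 counts in every library. In the same list, CD3E had 11 and 14 counts with the CELF2 ASO against 15 and 7 with the control ASO. CD247 had 39 and 34 against 87 and 54. Of 12 myeloid markers 5 were tested, 0 higher and 4 lower (80%, median -0.93), with sums of 30.5 and 31.9 CPM against 47.9 and 45.7 CPM. Most of each sum was CD33, at 27.4 ± 0.796 CPM with the CELF2 ASO and 38.2 ± 1.9 CPM with the control ASO (SD, n = 2 each). FCGR1A had 17 and 18 counts against 87 and 81, and CD14 had 29 and 33 against 67 and 52. S100A9 had 2 and 0 counts against 40 and 36 and passed the filter only through the control libraries. LYZ, FCGR3A and S100A8 were at 0 throughout. Of 10 stromal and epithelial markers 5 were tested, KRT8 higher and 2 lower (60%, median -0.17), with sums of 93.4 and 95.6 CPM against 127 and 124 CPM. KRT19 was at 0. KRT18 was at 48.9 ± 3.99 CPM against 54.9 ± 3.4 CPM, and EPCAM at 34 ± 5.21 CPM against 62.9 ± 1.1 CPM (SD, n = 2 each). The summed levels of the T and NK, myeloid, and stromal and epithelial lists were lower in both CELF2 ASO libraries. Of the tested members, CD22, CD79B, FCRLA, FCER2 and MS4A1 were higher and CR2 and BLK lower. Whether other cell types had a part in the members' changes was not tested.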

How the data were processed

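The authors deposited whole-number read counts per gene. The submitters' processing notes name STAR 2.7.11b and featureCounts 2.0.8, beside bcl2fastq, Subread and Salmon 1.10.0, and GRCh38. The sources used here give neither the annotation release nor strand or multimapper settings, and the labels name both poly(A) selection and ribosomal RNA removal. Left out were 97 rows of ERCC spike-ins and reporter genes, with 1 to 3 counts per library.

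Genes passing filterByExpr (minimum count 10, minimum total 15) were scaled by TMM and given to edgeR 4.0.16 (R 4.3.3), whose robust quasi-likelihood test was two-sided. P-values were adjusted by Benjamini-Hochberg over all 19511 genes (threshold 0.05). The SE is the absolute log2 fold change over the root of F. Counting intervals are exact (conditional binomial, 95%). The fit was tested on simulated counts that had few changed genes and the same spread in both groups. These libraries differ in both respects, so the simulation does not show how the fit fares here. Libraries of a pair differed beyond sampling noise (chi-square per degree of freedom 18.5 with the CELF2 ASO and 3.38 with the control ASO). Alternatives were DESeq2 1.42.0, limma-voom 3.58.1, other scalings and filters, a replicate block and leaving out each library. Positions and exon lengths are from GENCODE 29. A search of protein motifs was not run.

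Members and lists were chosen with earlier results of these data known. Named genes are the members, some of their tested neighbours and overlapping genes, the nearest profiles, and from each list up to 3 genes called in each direction (5 for receptor signalling) with the smallest adjusted p and a mean log2 CPM of at least 1. Named after their values were seen were PTPRC, IGHM, IGHG1, IGHE, IGLC2, IGLC3, BLNK, BTK, PAX5, EBF1, MAG, RABAC1, FCGR2B, ATF6, VPREB1, RAG1, LMO2, CD5, CD3E, CD14, S100A9, KRT18 and marker genes at or near 0.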

Additional observations from a re-analysis of the deposited data

How the results depend on the processing

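Every tested member kept its direction under every alternative that could test it. Of the 7 member calls, all held with RLE scaling, DESeq2, limma-voom and no filter. With library totals alone, which raised the median log2 fold change of all genes by 0.12, 0 members were called lower, and with the 1 CPM filter 1 was, since BLK and, in the first case, CR2 missed the threshold. CD22 could not be fitted with the 1 CPM filter or without either CELF2 ASO library, where it missed the filter. Without a control library MS4A1 missed the threshold and CD79A passed the filter and was called (adjusted p = 0.0372 without replicate 1 and 0.0223 without replicate 2), so 5 members were higher in each of these fits. A fit without 1 library leaves a group with 1 library, which is assumed to vary like the other group. The counts over all genes were 4091 to 6105 higher and 4511 to 6218 lower when 1 library was left out. With the label's number as a replicate block, 5407 genes were higher and 5402 lower, and the same 7 members were called. The replicate 1 minus 2 differences of the groups correlated at 0.068 across genes. This cannot show whether the numbers pair the libraries, since the control pair varied little (biological coefficient of variation 3.58%). FCRLB, which was not called, had log2 fold changes of -0.0083 with RLE scaling, -0.0402 with no filter, -0.0091 with DESeq2 and between -0.0408 and 0.0144 when 1 library was left out. The low depth of CD22, CD79A, CD79B and TCL1A in control cells, at 0 to 2 counts per library, limits what their folds can show.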

Other observations

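Of 18 listed genes of B cell precursors and germinal centre B cells, 9 were tested, with 5 higher and 1 lower, a share called of 66.7% against 55.5% of all tested genes and a median log2 fold change of 0.59 against 0.04. S1PR2, a sphingosine-phosphate receptor of germinal centre B cells, was 1.9-fold higher with the CELF2 ASO at 31 ± 5.4 CPM, against 16.3 ± 0.557 CPM with the control ASO (SD, n = 2 each, edgeR adjusted p = 0.00086). The peptidase MME (CD10) was 1.84-fold higher (edgeR adjusted p = 0.00466) and BCL7A 1.51-fold (edgeR adjusted p = 0.0133). VPREB1, a chain of the surrogate light chain of the pre-B cell receptor, fell, with 7 and 2 counts with the CELF2 ASO against 62 and 35 with the control ASO (edgeR adjusted p = 0.000659). It passed the filter only through the control libraries, and its log2 fold change was -3.39 with all libraries and -4.40 without CELF2 ASO replicate 1. RAG1, a recombinase subunit, had 51 and 55 counts against 27 and 21 (edgeR adjusted p = 0.00723), and LMO2 had 36 and 38 against 14 and 8 (edgeR adjusted p = 0.00331), LMO2 passing the filter only through the CELF2 ASO libraries.

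CD5, a surface protein of T cells and of B-1 cells that dampens antigen receptor signalling, had 35 and 27 counts with the CELF2 ASO against 4 and 5 with the control ASO (edgeR adjusted p = 0.000783). It passed the filter only through the CELF2 ASO libraries.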
